A study of Canis lupus familiaris with 8 samples.

Results

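Tissue from a surgical defect in the upper jaw of dogs, taken 6 weeks after surgery with protraction of a tooth (group DT6), was compared with tissue from such a defect at 2 weeks (group D2). The 4 arrays, 2 per group, were chosen by their titles alone and are part of a series of 8 Affymetrix whole-transcript arrays. Protraction is the forward movement of a tooth, as in orthodontic treatment, and no tooth movement is named in the labels of D2. In both groups the RNA came from what had regrown in the defect together with the neighbouring alveolar bone, at the root of the maxillary second premolar. The series also holds 2 arrays of a defect at 6 weeks whose titles name no protraction (D6) and 2 of sound alveolar bone (C), which are given here as context. The digit in each title was read as weeks after surgery. DT6 and D2 therefore differ in time and in tooth movement, and the parts of these in any difference cannot be told apart from DT6 and D2 alone. The labels used here state neither the dogs' age, sex or strain nor which animal each array came from. P-values therefore measure only the spread between these samples, which may be technical.

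Alveolar bone, the part of the jaw that carries the tooth roots, heals through overlapping phases. Inflammatory cells clear the wound, proliferating fibroblasts and vessels fill it with granulation tissue, and osteoblasts then lay down woven bone, which osteoclasts and osteoblasts remodel into lamellar bone with embedded osteocytes. In tooth movement osteoclasts resorb bone on the side towards which a root moves, osteoblasts form bone on the other side, and the periodontal ligament between root and bone transmits the load.

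Values are the deposited log2 probe set values, compared for 15947 genes. Each difference is DT6 minus D2, given as log2 ± the moderated standard error (SE) of limma, a linear model fitted across all genes, for 2 arrays against 2. Across genes, the DT6 arrays correlated with each other at r = 0.9745 and the D2 arrays at r = 0.9862. DT6 array 1 correlated with D2 array 1 at r = 0.9834, above its correlation with DT6 array 2. Defining bone genes were present in all 4 arrays: IBSP, a sialoprotein of mineralising matrix, measured 11.92 and 11.93 in DT6, against 12.07 and 11.68 in D2, and the osteoblast transcription factor SP7 8.17 and 7.34 in DT6, against 8.49 and 8.08 in D2. Transcripts of airway epithelium were present in both groups. The 46 measured genes of the airway secretory and gland list averaged 7.19 and 7.07 in DT6, 7.38 and 7.2 in D2, 5.58 and 5.2 in D6 and 5.31 and 5.28 in C. BPIFA1, which upper airway epithelium secretes, measured 12.69 and 12.08 in DT6, against 12.6 and 11.25 in D2, with 6.04 and 4.86 in D6. D2 array 2 also carried transcripts of stratified oral epithelium, whose 26 measured genes averaged 5.75 and 5.6 in DT6 and 5.49 and 7.26 in D2. In D6 these genes averaged 8.61 and 5.3. Among these, the keratin KRT13 measured 4.86 and 5.1 in DT6, against 4.75 and 9.48 in D2. The part of airway and oral epithelium in the differences below was not tested, and several results that rest on D2 array 2 are given without it as well.

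No gene passed an adjusted p of 0.05 in limma with Benjamini-Hochberg adjustment, in either direction. The count was 0 of 15947 genes (0%), with 435 genes higher and 557 lower in DT6 at an unadjusted p under 0.05. Both DT6 arrays lay above both D2 arrays for 16.1% of all genes and below them for 16.7%, in all 32.8%, and the median difference over all genes was -0.00227. The smallest adjusted p, 0.106, belonged to APOC1, an apolipoprotein also made by macrophages, at 5.91 and 5.58 in DT6, against 7.5 and 7.92 in D2; it is named here after its values were seen. That is -1.96 ± 0.21 log2, or 3.89-fold lower in DT6. Every difference described below is therefore a measured value that did not pass the test across genes, and a list of genes is described by its counts and median only.

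**Figure D1:**
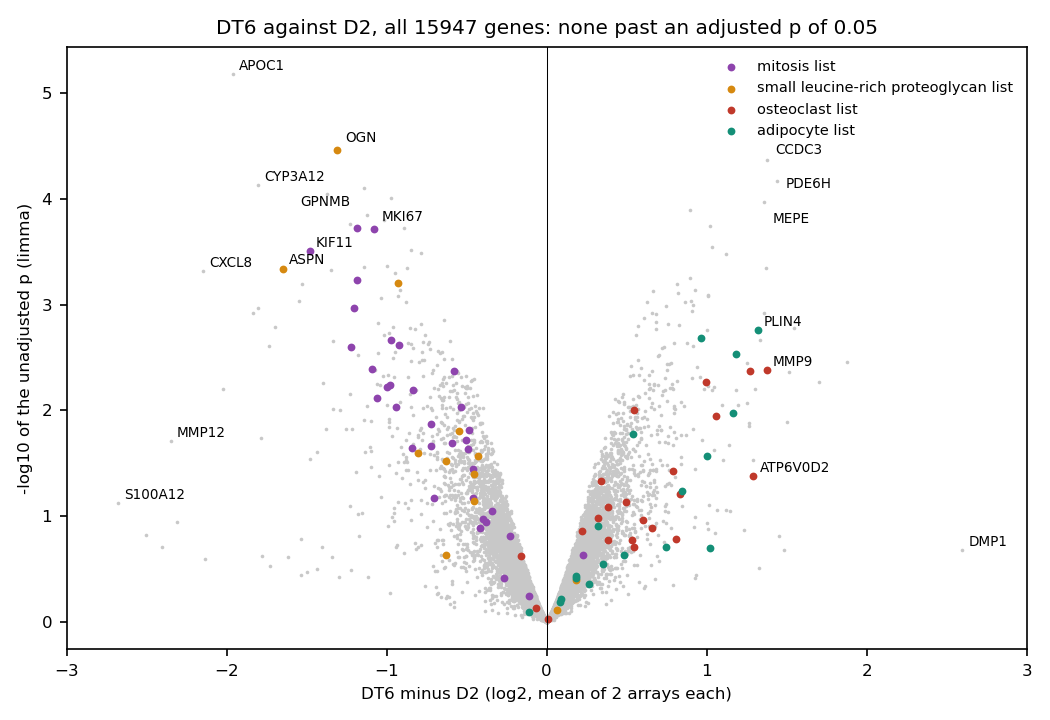
Each point is a gene, with DT6 minus D2 (log2, means of 2 arrays each) on the horizontal axis and −log10 of limma's unadjusted p on the vertical axis. Coloured points are members of 4 gene lists. Mitosis and proteoglycan genes lie mostly left of 0 and osteoclast and adipocyte genes mostly right of it, and the gene with the smallest p, APOC1, has an adjusted p of 0.106.

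Counts also depended on which arrays were used. Without DT6 array 1, which leaves DT6 with a lone array assumed to vary like the other groups, 24 genes passed, 17 higher and 7 lower in DT6. Without D2 array 1, 5 passed, 3 higher and 2 lower in DT6, and without DT6 array 2 or D2 array 2 the count was 0. Bone genes picked from the 24 were the calcitonin receptor CALCR at 1.86, the receptor TNFRSF11A at 1.48 and its ligand TNFSF11 at 1.46. ALPL at -1.37 and OGN at -1.52 were picked too. The 24 were mixed, and also held APOC1 at -2.13, the antiprotease SLPI at -2.52, FOS at 1.08 and others not named here. The 5 rest on the D2 array rich in oral epithelium transcripts. Higher in DT6 were the lysozyme LYZF2 at 2.88 (adjusted p = 0.0121), the lactoperoxidase LPO at 2.30 (adjusted p = 0.0358) and DMBT1, a secreted defence protein of mucosa, at 2.19 (adjusted p = 0.0268). Lower were CXCL8 at -2.87 (adjusted p = 0.0268) and MMP12 at -3.94 (adjusted p = 0.039). With both D2 arrays the differences were 0.79 ± 1.01 for LYZF2, 1.12 ± 0.58 for LPO and 1.07 ± 0.56 for DMBT1, and LPO and DMBT1 are named after their values were seen.

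Most transcripts of dividing cells were lower in both DT6 arrays, and the mitosis list had the largest share of genes lower in both DT6 arrays among the 44 lists examined. Both DT6 arrays lay below both D2 arrays for 31 of 34 mitosis genes, against 16.7% of all genes, and for 0 they lay above. At an unadjusted p under 0.05 in limma, 24 of the 34 were lower, against 557 of all 15947 genes. The list median was -0.71, against -0.00227 over all genes. MKI67, the nuclear marker of cycling cells, measured 6.86 and 7.22 in DT6, against 8.25 and 8.0 in D2. Its groups did not overlap, and the difference of -1.08 ± 0.18 log2 was 2.12-fold lower in DT6 (adjusted p = 0.182). KIF11, a motor that separates the spindle poles, measured 4.7 and 5.1 in DT6, against 6.58 and 6.18 in D2, which is -1.48 ± 0.26 log2 (adjusted p = 0.241). TOP2A, the topoisomerase that untangles replicated DNA, measured 6.23 and 6.4 in DT6, against 7.67 and 7.08 in D2, and CDK1, the kinase that drives entry into mitosis, 3.87 and 4.21 in DT6, against 5.23 and 4.8 in D2. All of these were lower in each DT6 array than in either D2 array, with KIF11 and CDK1 in the lowest 25% by mean level. In bulk tissue, fewer dividing cells and less of these transcripts per cell cannot be told apart.

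Other cell cycle genes differed in the same direction. DLGAP5, a spindle protein, measured 4.7 and 5.43 in DT6, against 6.66 and 5.91 in D2, and ANLN, which scaffolds the cleavage furrow, 5.77 and 5.93 in DT6, against 7.22 and 6.89 in D2. NCAPG, a condensin subunit that compacts chromosomes, measured 5.16 and 5.5 in DT6, against 6.69 and 6.26 in D2, which is -1.14 ± 0.21 log2. Of the 14 chromatin genes of dividing cells, 12 were lower in both DT6 arrays than in both D2 arrays, against 16.7% of all genes. Their median was -0.29. DNA replication genes differed less, with 14 of 29 lower in both DT6 arrays, 1 higher and a median of -0.24. RRM2, the subunit of ribonucleotide reductase made in S phase, measured 6.68 and 6.82 in DT6, against 7.84 and 7.41 in D2 and differed by -0.88 ± 0.18 log2, while DTL, which directs the degradation of replication licensing factors, measured 5.58 and 5.87 in DT6, against 6.85 and 6.49 in D2. Between the D2 arrays, array 1 was the higher for all but 2 of the 34 mitosis genes, and the list median was -0.51 without it and -0.97 without array 2. The mitosis genes averaged 5.61 and 5.71 in DT6, 6.55 and 6.19 in D2, 5.83 and 5.82 in D6 and 4.93 and 5.31 in C, and for 25 of 34 the D6 mean lay between those of DT6 and D2.

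**Figure D2:**
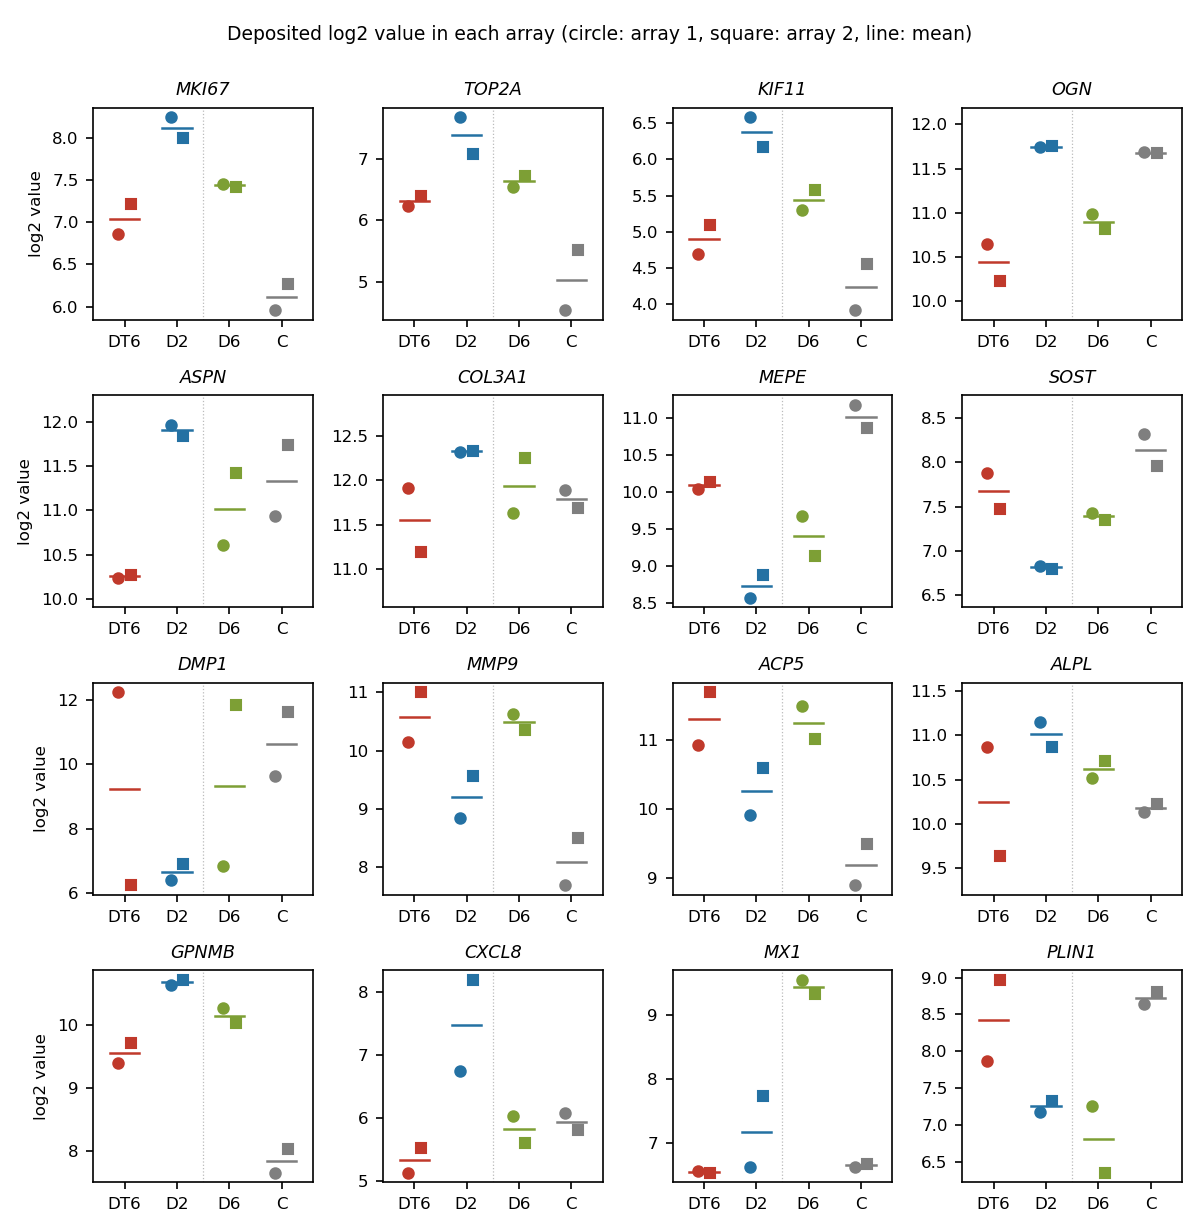
The deposited log2 value of 16 genes in each array, with DT6 and D2 left of the dotted line and D6 and C right of it. Circles are array 1, squares array 2 and lines the group mean. MKI67, TOP2A, KIF11, OGN and ASPN were lower in both DT6 arrays than in both D2 arrays, MEPE, SOST, MMP9 and ACP5 were higher in both, and DMP1 differed between the DT6 arrays by more than any other gene shown.

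Matrix genes of connective tissue were mostly lower in DT6. The small leucine-rich proteoglycans bind collagen fibrils and set their diameter and spacing. In both DT6 arrays 9 of 12 were lower and 1 higher, against 16.7% and 16.1% of all genes, with a median of -0.59. OGN, osteoglycin, measured 10.65 and 10.23 in DT6, against 11.75 and 11.75 in D2, which is -1.31 ± 0.17 log2 or 2.48-fold lower in DT6 (adjusted p = 0.182). The D2 arrays agreed closely, and C stood near D2 at 11.69 and 11.67 while D6 was lower at 10.98 and 10.82. ASPN, asporin, a proteoglycan abundant in periodontal ligament, measured 10.24 and 10.27 in DT6, against 11.97 and 11.84 in D2 and differed by -1.65 ± 0.30 log2 (adjusted p = 0.265). PRELP, which anchors matrix to basement membranes, measured 8.76 and 9.07 in DT6, against 9.99 and 9.7 in D2. Against the D2 mean the list median was -0.52 for array 1 and -0.60 for array 2.

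Fibrillar and repair matrix genes differed in the same direction but less evenly between the DT6 arrays. Of 25 measured, 16 were lower in both DT6 arrays than in both D2 arrays and 0 were higher, against 16.7% and 16.1% of all genes. The list median was -0.45. Against the D2 mean the median was -0.20 in DT6 array 1 and -0.69 in DT6 array 2. COL3A1, the collagen of early repair tissue, measured 11.91 and 11.19 in DT6, against 12.32 and 12.34 in D2, and COL1A1, the main chain of bone collagen, 13.66 and 13.0 in DT6, against 13.72 and 13.64 in D2. COL1A1 in DT6 array 1 lay between the D2 arrays, so its groups overlapped. CTHRC1, a secreted protein of repair fibroblasts, measured 9.38 and 9.12 in DT6, against 10.42 and 10.33 in D2, a difference of -1.12 ± 0.34 log2. TNN, tenascin W, a matrix protein of periosteum and bone-forming tissue, measured 9.06 and 7.92 in DT6, against 9.94 and 9.72 in D2, and POSTN, periostin of ligament and periosteum, 12.49 and 11.78 in DT6, against 12.78 and 12.8 in D2. For TNN and POSTN the lower DT6 value was that of array 2.

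The enzymes that fold and crosslink collagen went with the fibrillar genes. 14 of 21 were lower in both DT6 arrays and 0 were higher, against 16.7% and 16.1% of all genes, with a median of -0.49. Against the D2 mean that median was -0.27 in DT6 array 1 and -0.76 in array 2. LOX, lysyl oxidase, which starts collagen crosslinks, measured 10.76 and 10.23 in DT6, against 11.28 and 11.31 in D2. P3H1, a prolyl hydroxylase of collagen, measured 8.4 and 7.9 in DT6, against 9.14 and 8.65 in D2, and P4HA3, a chain of another, 6.7 and 6.03 in DT6, against 7.15 and 7.1 in D2. Genes of secretion leaned the same way, with 11 of 28 lower and 2 higher in both DT6 arrays. Among them SEC24D, a coat protein of the vesicles that export procollagen, measured 9.61 and 9.31 in DT6, against 10.22 and 9.97 in D2, and its partner SEC23A 8.89 and 8.61 in DT6, against 9.58 and 9.24 in D2.

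Of 25 cartilage genes, 4 were higher and 6 lower in both DT6 arrays, against 16.1% and 16.7% of all genes, with a median of -0.03. The aggrecan core protein ACAN measured 8.57 and 7.43 in DT6, against 9.68 and 8.91 in D2, a difference of -1.29 ± 0.40 log2. HAPLN1, which links aggrecan to hyaluronan, measured 8.72 and 7.6 in DT6, against 9.65 and 10.06 in D2 (-1.70 ± 0.38 log2), and CNMD, chondromodulin, 8.19 and 7.42 in DT6, against 8.72 and 9.39 in D2. These were lower in both DT6 arrays, and lowest in DT6 array 2. The collagen II gene COL2A1 and the chondrocyte transcription factor SOX9 differed by -0.10 ± 0.26 and -0.12 ± 0.15. MATN3, matrilin 3, measured 4.5 and 5.38 in DT6, against 4.96 and 5.4 in D2, and stood far higher in C at 10.12 and 10.08. TNMD, tenomodulin, a marker of tendon and ligament cells, measured 4.4 and 4.08 in DT6, against 5.26 and 7.26 in D2. Its difference of -2.02 ± 0.57 was -1.02 without D2 array 2 (adjusted p = 1).

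Genes of osteocytes, the cells buried in bone, were partly higher in DT6. MEPE, a phosphoglycoprotein of the osteocyte matrix, measured 10.03 and 10.14 in DT6, against 8.57 and 8.88 in D2. Its groups lay more than 1 log2 apart, and the difference of 1.36 ± 0.21 log2 was 2.56-fold higher in DT6 (adjusted p = 0.182). In C MEPE measured 11.17 and 10.85, above every defect array, and in D6 9.67 and 9.13. SOST, the Wnt inhibitor sclerostin made by mature osteocytes, measured 7.88 and 7.48 in DT6, against 6.83 and 6.8 in D2, a difference of 0.86 ± 0.18 log2 (adjusted p = 0.316). PHEX, a membrane peptidase that restrains FGF23, measured 9.81 and 9.57 in DT6, against 8.97 and 8.44 in D2, which is 0.98 ± 0.28 log2. All 3 were higher in each DT6 array than in either D2 array.

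DMP1, a matrix phosphoprotein of osteocytes and dentin, behaved otherwise. It measured 12.25 and 6.23 in DT6, against 6.4 and 6.89 in D2, so that DT6 array 2 lay below both D2 arrays while DT6 array 1 lay more than 5 log2 above them. D6 was as divided, at 6.82 and 11.84, and C measured 9.63 and 11.62. MMP20, the protease of enamel matrix, was high in the same arrays, at 7.67 and 4.91 in DT6, against 4.74 and 4.86 in D2, with 5.19 and 8.84 in D6 and 7.81 and 8.0 in C. Of the 10 osteocyte genes, 5 were higher and 0 lower in both DT6 arrays, against 16.1% and 16.7% of all genes. The list median was 0.28.

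Osteoblast and bone matrix genes were split between the DT6 arrays. Of 24, 3 (12.5%) were higher and 7 (29.17%) lower in both DT6 arrays, against 16.1% and 16.7% of all genes. The list median was -0.32. Against the D2 mean the median was -0.06 in DT6 array 1 and -0.67 in DT6 array 2. ALPL, the alkaline phosphatase of mineralising cells, measured 10.86 and 9.64 in DT6, against 11.16 and 10.87 in D2, so that array 1 lay just below the lower D2 array and array 2 more than 1 log2 below it. SMPD3, a sphingomyelinase needed for mineralisation, measured 9.3 and 7.41 in DT6, against 9.51 and 9.17 in D2, and BGLAP, osteocalcin, 8.26 and 7.44 in DT6, against 8.26 and 7.94 in D2, with the same array low. RUNX2, the master transcription factor of the osteoblast lineage, measured 10.43 and 10.67 in DT6, against 10.47 and 10.22 in D2, and its groups overlapped. ENPP1, which makes the mineralisation inhibitor pyrophosphate, measured 9.37 and 10.06 in DT6, against 8.8 and 8.88 in D2, a difference of 0.87 ± 0.21 log2 (adjusted p = 0.426). ANKH, which carries pyrophosphate out of cells, measured 8.7 and 8.77 in DT6, against 8.06 and 8.09 in D2 and differed by 0.66 ± 0.13 log2. ANKH is named after its values were seen.

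Many osteoclast genes were higher in DT6, most of all in array 2. Both DT6 arrays lay above both D2 arrays for 11 of 22, against 16.1% of all genes, and below for 1. The list median was 0.55, but against the D2 mean it was 0.09 in DT6 array 1 and 1.15 in array 2, and 20 of 22 genes were higher in array 2. MMP9, a gelatinase of osteoclasts and neutrophils, measured 10.15 and 11.0 in DT6, against 8.83 and 9.57 in D2, which is 1.37 ± 0.36 log2 or 2.59-fold higher in DT6 (adjusted p = 0.502). ACP5, the tartrate-resistant acid phosphatase, measured 10.92 and 11.69 in DT6, against 9.91 and 10.59 in D2, a difference of 1.06 ± 0.33 log2. ATP6V0D2, a proton pump subunit needed for osteoclast fusion, measured 8.27 and 10.05 in DT6, against 7.54 and 8.19 in D2, and DCSTAMP, a receptor of cell fusion, 5.9 and 7.87 in DT6, against 5.83 and 6.32 in D2. In MMP9, ACP5 and ATP6V0D2 both DT6 arrays exceeded both D2 arrays, while for DCSTAMP only DT6 array 2 did.

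CTSK, the collagen-degrading protease of osteoclasts, measured 11.88 and 12.68 in DT6, against 11.77 and 12.02 in D2, and its groups overlapped. CALCR, the calcitonin receptor of mature osteoclasts, measured 5.5 and 6.68 in DT6, against 4.63 and 5.01 in D2 (1.27 ± 0.33 log2, adjusted p = 0.502). Genes that signal to osteoclasts were near the figures for all genes, with 2 of 13 higher and 2 lower in both DT6 arrays, against 16.1% and 16.7% of all genes, and a median of 0.02. TNFRSF11A, the receptor RANK, measured 7.21 and 8.17 in DT6, against 6.51 and 6.86 in D2, and its ligand TNFSF11, RANKL, 7.28 and 8.71 in DT6, against 7.12 and 7.39 in D2. RANKL thus exceeded both D2 values in DT6 array 2 alone, and DT6 array 1 lay between the D2 arrays. The decoy receptor TNFRSF11B, osteoprotegerin, differed by 0.18 ± 0.24. TREM2, a receptor of myeloid cells and osteoclast precursors, was lower in both DT6 arrays, at 6.68 and 6.24 in DT6, against 7.05 and 7.1 in D2 (-0.61 ± 0.23 log2, adjusted p = 0.726). The collagenase MMP13, made by osteoblasts and hypertrophic chondrocytes, measured 11.68 and 12.41 in DT6, against 11.01 and 11.36 in D2 and differed by 0.86 ± 0.26 log2, and SPP1, osteopontin of osteoclasts and osteoblasts, measured 12.65 and 13.42 in DT6, against 12.2 and 12.43 in D2. The osteoclast genes averaged 7.93 and 8.76 in DT6, 7.62 and 7.87 in D2, 8.34 and 8.09 in D6 and 7.17 and 7.43 in C.

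**Figure D3:**
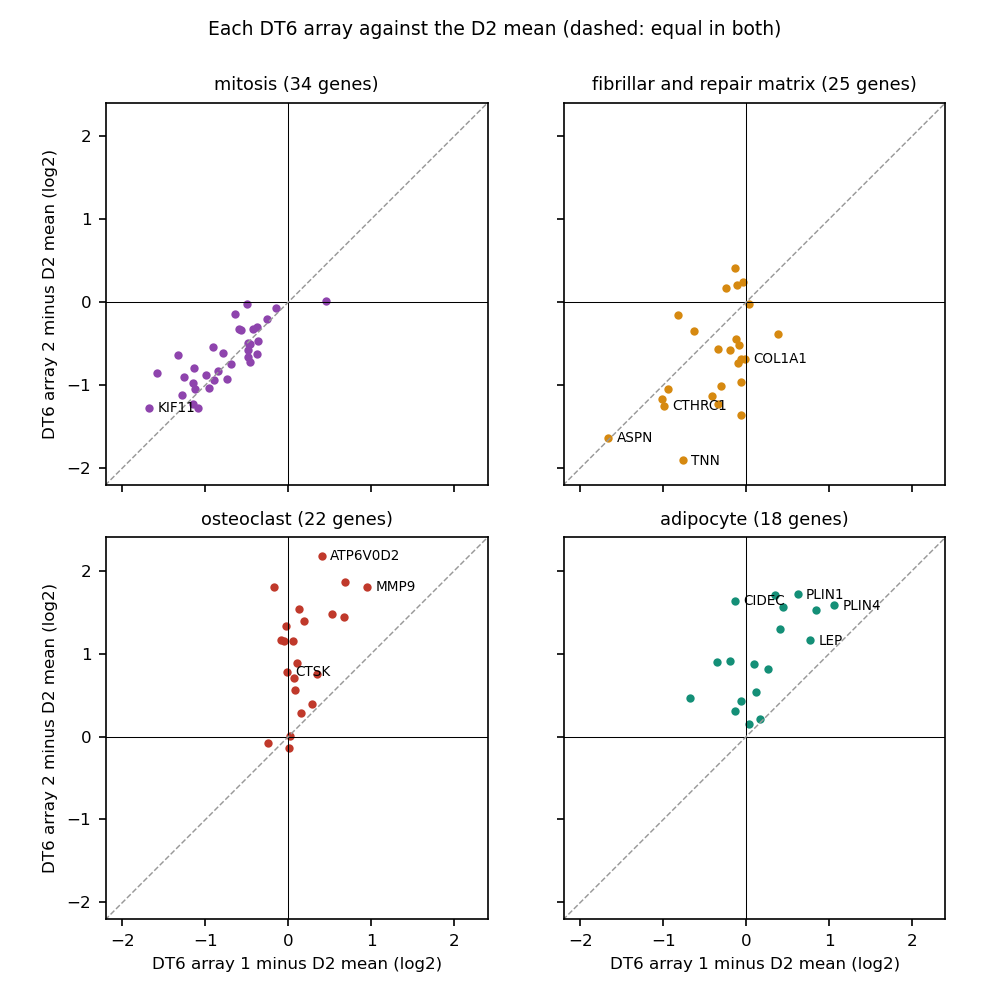
For 4 gene lists, each point is a gene, with DT6 array 1 minus the D2 mean on the horizontal axis and DT6 array 2 minus the D2 mean on the vertical axis (log2), and the dashed line marks equal differences. Nearly all mitosis genes lie near the line and below 0, while osteoclast and adipocyte genes lie mostly above it, with list medians of 0.09 and 1.15 for osteoclast genes in arrays 1 and 2.

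Adipocyte genes showed the same unequal arrays. Of 18, 11 were higher and 0 lower in both DT6 arrays, against 16.1% and 16.7% of all genes. The median was 0.51, and all 18 were higher in DT6 array 2 than in array 1. PLIN1, which coats the lipid droplet, measured 7.88 and 8.97 in DT6, against 7.18 and 7.33 in D2, with 7.26 and 6.36 in D6 and 8.64 and 8.8 in C. PLIN4, a related coat protein, measured 7.06 and 7.58 in DT6, against 5.82 and 6.19 in D2 (1.32 ± 0.30 log2, adjusted p = 0.38), and the hormone leptin, LEP, 6.47 and 6.86 in DT6, against 5.78 and 5.62 in D2. LPL, the lipase that frees fatty acids for uptake, measured 10.4 and 11.08 in DT6, against 9.72 and 9.39 in D2. These 4 were higher in both DT6 arrays than in both D2 arrays, while CIDEC, a lipid droplet fusion protein, was higher in array 2 alone, at 7.11 and 8.88 in DT6, against 7.31 and 7.19 in D2. Against the D2 mean the list median was 0.14 in DT6 array 1 and 0.90 in array 2.

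Macrophage genes were divided between markers. GPNMB, a glycoprotein of lipid-laden macrophages and osteoclasts, measured 9.41 and 9.72 in DT6, against 10.65 and 10.73 in D2, which is -1.12 ± 0.18 log2 or 2.18-fold lower in DT6 (adjusted p = 0.182). In D6 it measured 10.27 and 10.04 and in C 7.65 and 8.04. The lysosomal protein CD68, which osteoclasts also carry, measured 9.66 and 10.43 in DT6, against 9.04 and 9.45 in D2, higher in both DT6 arrays, at 0.80 ± 0.24 log2. The scavenger receptor MSR1 measured 6.88 and 7.37 in DT6, against 7.74 and 7.5 in D2, and C3AR1, the receptor for the complement fragment C3a, which stands in the complement list, 6.6 and 7.08 in DT6, against 7.65 and 7.55 in D2, both lower in each DT6 array. CSF1R, the receptor of the macrophage growth factor, measured 8.8 and 9.8 in DT6, against 8.67 and 8.85 in D2, and CD163, of resident macrophages, 6.57 and 7.2 in DT6, against 6.86 and 7.05 in D2, both with overlapping groups. Of the 26 genes in the list, 1 was higher and 7 were lower in both DT6 arrays, against 16.1% and 16.7% of all genes. The list median was -0.26. That median was -0.50 in DT6 array 1 and 0.20 in array 2, on opposite sides of the D2 mean.

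Some inflammatory genes were lower in DT6, and among the DT6 and D2 arrays several of them were highest in D2 array 2. CXCL8, the chemokine that draws neutrophils, measured 5.12 and 5.51 in DT6, against 6.74 and 8.19 in D2. Both DT6 arrays were lower, with a difference of -2.15 ± 0.40 log2 (adjusted p = 0.265), and the difference was -1.43 without D2 array 2 (adjusted p = 0.555). CCL2, which recruits monocytes, measured 6.63 and 7.79 in DT6, against 8.03 and 8.36 in D2, and CXCL10, an interferon-induced chemokine, 4.92 and 5.2 in DT6, against 5.79 and 6.14 in D2. For both, the lowest value was that of DT6 array 1. S100A8 and S100A12, calcium-binding proteins of neutrophils that keratinocytes also make, measured 5.29 and 4.7 in DT6, against 6.08 and 8.91 in D2 for S100A8 and 5.58 and 6.18 in DT6, against 7.31 and 9.8 in D2 for S100A12. Without D2 array 2 their differences were -1.08 and -1.43, against -2.50 ± 1.59 and -2.68 ± 1.33 with it. In D6, S100A8 measured 10.13 and 4.17 and S100A12 10.41 and 5.49. D6 array 1, where both were highest, was also rich in oral epithelium transcripts. The macrophage elastase MMP12 measured 4.96 and 4.45 in DT6, against 5.46 and 8.65 in D2, and its difference of -2.35 ± 0.83 was -0.76 without that array. Neutrophil markers were divided. MPO measured 5.34 and 4.95 in DT6, against 5.91 and 5.42 in D2 (-0.52 ± 0.21 log2, limma, adjusted p = 0.771). ELANE was higher in both DT6 arrays, at 6.44 and 6.37, against 6.29 and 6.25 in D2. CSF3R and CXCR2 differed by -0.18 ± 0.20 and -0.18 ± 0.25, with overlapping groups. IL1B and IL6, the classical cytokines of acute inflammation, differed by -0.16 ± 0.23 and 0.49 ± 0.31, with overlapping groups. Both were in the lowest 25% of genes by mean level, where a difference may go unseen. Of 31 interleukin and cytokine genes, 3 were higher and 6 lower in both DT6 arrays, against 16.1% and 16.7% of all genes. IL15 and LIF were among the higher, at 0.58 ± 0.15 and 0.57 ± 0.20 log2. IL18 was among the lower, at -0.87 ± 0.35 log2.

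Interferon-induced genes averaged lower in both groups than in D6. Of 32, 10 were lower and 0 higher in both DT6 arrays, against 16.7% and 16.1% of all genes. The median was -0.25, or -0.0656 without D2 array 2. MX1, an antiviral GTPase, measured 6.56 and 6.53 in DT6, against 6.62 and 7.73 in D2, so that D2 array 2 alone stood apart, and OAS1, which makes the activator of an RNA-degrading enzyme, 5.99 and 5.79 in DT6, against 6.0 and 6.99 in D2. In D6 MX1 measured 9.56 and 9.34 and OAS1 8.21 and 7.89, above all 4 arrays compared. Without D2 array 2 the difference in MX1 was -0.07, against -0.63 ± 0.30 with it, and that in OAS1 -0.11, against -0.60 ± 0.28. Over the list the mean level was 6.41 and 6.59 in DT6 and 6.54 and 7.0 in D2, against 7.96 and 7.81 in D6. Antigen presentation genes were lower in both DT6 arrays for 6 of 22 and higher for 0. The class II chain DLA-DRA measured 10.66 and 11.77 in DT6, against 11.8 and 11.7 in D2, with DT6 array 1 alone below D2 by more than 1 log2.

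The counts of lymphocyte genes stand against 16.1% of all genes higher and 16.7% lower in both DT6 arrays. Of 32 T and NK cell genes, 3 were higher and 7 lower in both DT6 arrays. The coreceptor CD4 measured 6.13 and 6.42 in DT6, against 6.59 and 7.15 in D2, and the adhesion molecule CD2 7.3 and 8.25 in DT6, against 8.38 and 8.31 in D2. For CD4 the difference was -0.59 ± 0.21 log2, or -0.31 without D2 array 2. The T cell receptor chain CD3E differed by -0.06 ± 0.31. Of 21 B and plasma cell genes, 3 were higher and 2 lower, and JCHAIN, which joins IgA and IgM, measured 9.85 and 11.62 in DT6, against 10.67 and 10.3 in D2. JCHAIN and the B cell marker MS4A1, at 4.21 and 5.88 in DT6, against 5.41 and 4.67 in D2, were highest in DT6 array 2.

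**Figure D4:**
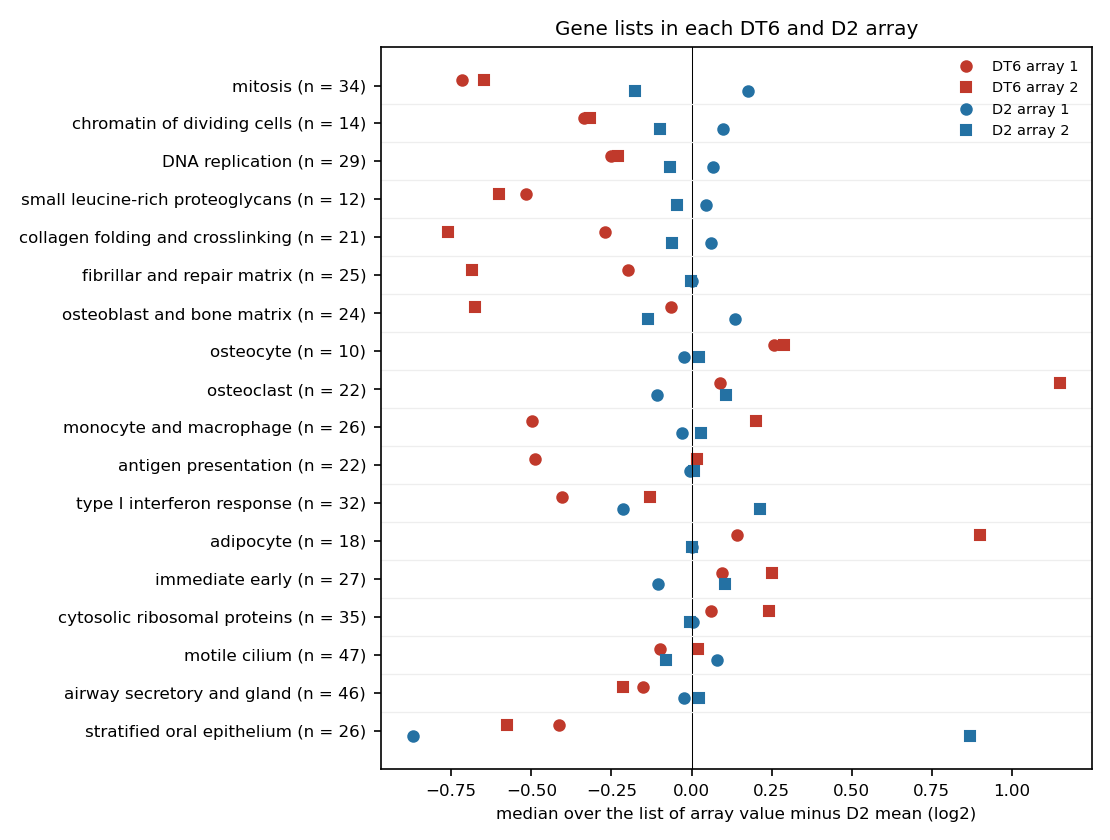
For 18 gene lists, the median over members of each array's value minus the D2 mean (log2), with DT6 in red above D2 in blue; circles are array 1 and squares array 2, and n is the number of measured genes. In mitosis the DT6 arrays lie at -0.72 and -0.65, while in the osteoclast list they lie at 0.09 and 1.15; the D2 arrays part most in stratified oral epithelium.

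Vessel and smooth muscle genes differed gene by gene. Of 29 endothelial and angiogenic genes, 11 were higher and 4 lower in both DT6 arrays, against 16.1% and 16.7% of all genes. The list median was 0.10. ESM1, a proteoglycan of sprouting endothelium, measured 8.7 and 9.72 in DT6, against 8.02 and 7.37 in D2 (1.51 ± 0.40 log2), and FLT1, a VEGF receptor, 9.7 and 9.96 in DT6, against 8.95 and 9.12 in D2. The pan-endothelial genes PECAM1 and CDH5 differed by -0.04 ± 0.21 and -0.14 ± 0.14, and VEGFA, the growth factor itself, by 0.01 ± 0.12. In smooth muscle, ACTG2, an actin of visceral muscle, measured 8.72 and 8.36 in DT6, against 7.31 and 7.52 in D2 (1.12 ± 0.20 log2, adjusted p = 0.241), and MYH11, the smooth muscle myosin, 8.07 and 8.59 in DT6, against 7.3 and 7.51 in D2. Both were higher in each DT6 array, while of the 18 genes of that list 5 were higher and 2 lower.

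Single signalling genes differed within several lists. EGR1, an immediate early transcription factor that loading induces in connective tissue, measured 10.55 and 10.61 in DT6, against 9.53 and 9.62 in D2. That is 1.01 ± 0.20 log2 or 2.01-fold higher in DT6 (limma, adjusted p = 0.316). EGR1 measured 10.43 and 10.31 in D6, whose titles name no protraction, and 10.22 and 10.88 in C, so that D2 alone was low. FOS and FOSB, subunits of AP-1, measured 9.37 and 10.01 in DT6, against 8.92 and 8.95 in D2 for FOS and 7.25 and 8.05 in DT6, against 6.43 and 6.8 in D2 for FOSB. All 3 were higher in each DT6 array. Of 27 immediate early genes 10 were higher and 4 lower, against 16.1% and 16.7% of all genes. Their median was 0.20, or 0.0388 without D2 array 1. In the Wnt list of 40 genes, 7 were higher and 9 lower, against the same shares of all genes, with a median of -0.06. Among the lower was DKK3, at 8.1 and 7.17 in DT6, against 8.33 and 8.72 in D2 (-0.89 ± 0.44 log2). The Wnt inhibitor WIF1 measured 11.34 and 11.84 in DT6, against 10.78 and 10.57 in D2, and RSPO3, which amplifies Wnt signals, 6.69 and 7.39 in DT6, against 5.88 and 5.54 in D2, both higher in DT6. PTGER3, a prostaglandin E2 receptor, measured 6.86 and 7.28 in DT6, against 6.0 and 6.08 in D2 (1.03 ± 0.18 log2, adjusted p = 0.241), and SLCO2A1, which takes prostaglandins into cells, 8.53 and 8.74 in DT6, against 7.8 and 8.09 in D2. PTGER3 and SLCO2A1 were the 2 of 19 prostaglandin genes higher in both DT6 arrays, while 7 were lower, with a list median of -0.15. The inducible cyclooxygenase PTGS2 differed by -0.40 ± 0.33. Of 23 mechanosensing and YAP genes, 4 were higher and 5 lower in both DT6 arrays, with a median of -0.04. At an unadjusted p under 0.05 in limma stood 0 of them, against 435 higher and 557 lower of all 15947 genes.

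The BMP and TGF-beta list held 7 of 35 genes higher and 5 lower in both DT6 arrays, against 16.1% and 16.7% of all genes. Its median was 0.01. TGFB3, a TGF-beta isoform, measured 7.44 and 6.71 in DT6, against 7.61 and 7.79 in D2, and TGFBR3, the coreceptor betaglycan, 7.91 and 8.7 in DT6, against 7.42 and 7.82 in D2. The IGF and FGF list was as balanced, at 6 higher and 5 lower of 26, and its IGF1, a growth factor for bone and connective tissue cells, measured 7.56 and 7.75 in DT6, against 8.19 and 8.08 in D2. IGF1 was lower in each DT6 array, with a difference of -0.48 ± 0.13 log2. Among cytosolic ribosomal proteins, 19 of 35 were higher in both DT6 arrays and 1 lower, but by little, with a median of 0.17. RPLP1, a protein of the ribosomal stalk, measured 10.79 and 10.95 in DT6, against 10.2 and 10.38 in D2.

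The motile cilium list had a median near 0, while in the secretory and gland list more genes were lower in DT6 than higher. Of 47 motile cilium genes, 3 were higher and 7 lower in both DT6 arrays, against 16.1% and 16.7% of all genes. Their median was -0.05. DNAH5, a dynein heavy chain of the ciliary axoneme, measured 6.89 and 7.7 in DT6, against 7.85 and 7.16 in D2. The secretory and gland list held 16 of 46 genes lower and 3 higher, with a median of -0.14. SLPI, an antiprotease of secretions, measured 9.71 and 8.15 in DT6, against 10.53 and 10.8 in D2, a difference of -1.74 ± 0.42 log2. TFF3, a peptide of mucus-secreting cells, measured 7.25 and 6.6 in DT6, against 8.46 and 8.08 in D2 (-1.35 ± 0.25 log2, adjusted p = 0.265), and MUC4, a membrane mucin, 7.25 and 6.5 in DT6, against 8.01 and 8.42 in D2. These 3 were lower in each DT6 array, while SCGB1A1, of club cells, overlapped at 9.41 and 11.39 in DT6, against 10.06 and 9.88 in D2.

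Schwann cell genes were higher in both DT6 arrays for 2 of 15, skeletal muscle genes for 4 of 23, respiratory chain genes for 2 of 21 and sterol synthesis genes for 1 of 17. They were lower in both for 1, 0, 1 and 3 genes of those lists. All counts in this paragraph stand against 16.1% of all genes higher and 16.7% lower in both DT6 arrays. Among erythroid genes, ALAS2, the first enzyme of haem synthesis in red cell precursors, measured 5.35 and 4.44 in DT6, against 5.73 and 6.85 in D2, and AHSP, the chaperone of alpha haemoglobin, 3.22 and 2.95 in DT6, against 4.21 and 4.07 in D2. Both were lower in each DT6 array, and without D2 array 2 the difference in ALAS2 was -0.84, against -1.40 ± 0.38 with it. ALAS2 and AHSP were both in the lowest 25% of genes by mean level. Of the 15 erythroid genes 3 were higher in both DT6 arrays and only ALAS2 and AHSP lower, with a list median of -0.01. In the other lists, counted the same way, proteases and their inhibitors gave 5 higher and 9 lower of 22, tendon and ligament genes 3 higher and 3 lower of 13, and neutrophil genes 1 higher and 7 lower of 18. Chemokines and their receptors gave 1 higher and 7 lower of 30, interleukins and cytokines 3 higher and 6 lower of 31, and prostaglandin genes 2 higher and 7 lower of 19. Complement genes gave 4 higher and 2 lower of 17, Toll-like receptors 1 higher and 2 lower of 12, genes of glycolysis and hypoxia 4 higher and 6 lower of 27, and enamel organ genes 2 higher and 1 lower of 7.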

How the data were processed

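RNA from 8 tissue samples was hybridised to Affymetrix whole-transcript arrays, per the labels' protocols. The deposited series values are on a log2 scale, as judged from their range; the authors' normalization is not given in the sources used here, and no further scaling was applied. Of 22708 probe sets, 16545 were paired with just 1 gene symbol by the array's annotation, 370 with more than 1, and 5793 were unlisted there. A gene with several probe sets was represented by the one of highest average value, which left 15947 genes. limma 3.58.1 in R 4.3.3 fitted the 4 group means on all 8 arrays with a variance trend. DT6 minus D2 was tested with Benjamini-Hochberg adjustment over all genes at 0.05. The script was tested on simulated data.

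The genes compared and the 44 gene lists were chosen with earlier results of these data known. A rule set which genes could be named. Per list it took up to 5 past the threshold or otherwise the 3 with the largest difference. It also took those differing most between replicate arrays, cell type markers and key genes of bone healing. The text names only a part of these, picked with their values known. APOC1, ANKH, LPO, DMBT1 and the labels CCDC3, PDE6H and CYP3A12 in a plot fall outside this rule and were chosen after their values were seen. Replicate numbers were checked for pairing and entered only an alternative. Alternatives covered normalization, variance trend, probe set choice, a filter on dim genes, the arrays fitted, a replicate block and each array left out.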

Additional observations from a re-analysis of the deposited data

How the results depend on the processing

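As in the analysis reported, no gene passed an adjusted p of 0.05 in limma with DT6 and D2 arrays only or without a variance trend. The same held with dim genes left out, with probe sets averaged or with quantile normalization. Requiring a log2 difference of at least 1 as well could not change a count of 0. Over all 22708 probe sets 1 passed, lower in DT6, and it has no listed gene. Leaving out a single array gave counts from 0 to 24, with 24 without DT6 array 1, 5 without D2 array 1 and 0 without any of the others. With D2 array 2 and D6 array 1, both rich in oral epithelium transcripts, left out together, an alternative chosen after seeing the data, the count was 0. With the replicate number as a block (replicate block) it was also 0, with 894 genes at an unadjusted p under 0.05 and a smallest adjusted p of 0.246. Deviations of same-numbered DT6 and D2 arrays correlated at r = -0.0145, and whether same-numbered arrays share an animal or batch is not stated in the labels used here. IL15, IL18, LIF, DKK3, ELANE, CSF3R and CXCR2 were not followed through the alternatives. Of the 114 genes that were, 90 kept the sign of their difference in all alternatives run. The other 24 reversed in at least 1, none of them past the threshold in the analysis reported. Leaving out a single array, their differences ranged as follows: VEGFA from -0.02266 to 0.04873, DNAH5 from -0.62 to 0.19, IBSP from -0.14 to 0.24, BPIFA1 from -0.22 to 1.14, KRT13 from -4.50 to 0.23, LYZF2 from -1.30 to 2.88, LPO from -0.05038 to 2.30, DMBT1 from -0.05954 to 2.19, CD163 from -0.39 to 0.25, IL1B from -0.41 to 0.09013, MS4A1 from -0.83 to 0.84, PECAM1 from -0.23 to 0.15, MATN3 from -0.68 to 0.21, DMP1 from -0.41 to 5.61, DLA-DRA from -1.08 to 0.02769, CD3E from -0.61 to 0.49, COL2A1 from -0.54 to 0.35, BGLAP from -0.66 to 0.16, DCSTAMP from -0.18 to 1.80, CTSK from -0.01334 to 0.78, CIDEC from -0.14 to 1.63, IL6 from -0.03348 to 1.01, JCHAIN from -0.64 to 1.13 and SCGB1A1 from -0.56 to 1.43. Under quantile normalization, reversed differences were MS4A1 -0.0268 and VEGFA -0.004209. With both oral epithelium arrays out they were IBSP -0.14, BPIFA1 -0.22, KRT13 0.23, LYZF2 -1.30, LPO -0.05038, DMBT1 -0.05954, CD163 0.01996, IL1B 0.09013, MS4A1 -0.36 and PECAM1 0.03477. The cause was not tested. Some genes followed were low on the array scale. The filter on dim genes, at percentile 25 of mean level, left out KIF11, CDK1, DLGAP5, CALCR, TNMD, LYZF2, CXCL10 and MMP12. It also left out MPO, IL1B, IL6, PTGS2, CD3E, MS4A1, ALAS2 and AHSP. The number of arrays, 2 per group, limits the precision of every value.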
